A study of Homo sapiens with 12 samples.

Results

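NF-kB and inflammatory cytokine genes were followed through the 4 groups of an siRNA and peptide experiment in Ishikawa cells. The list holds 38 genes: transcription factor subunits, their inhibitors and feedback genes, survival and signalling adaptors, cytokines, chemokines, and adhesion and effector genes. A member was found by its symbol in the annotation of the array platform, and the probe set with the highest mean over the 12 arrays stood for it. Of the 38 genes, 36 were measured in this way, out of 19775 genes on the array. BIRC3 and CSF2 had no matched probe set and were not analysed here. SOD2 is represented by its single probe set with 1 gene name, and 4 further probe sets that list it among several genes were not used for it.

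NF-kB is a family of dimeric transcription factors that IkB proteins hold in the cytoplasm of resting cells. Signals from TNF or interleukin 1 receptors, or from Toll-like receptors, activate the IKK kinases, the IkB proteins are degraded, and the freed dimers switch on cytokine, chemokine, adhesion and survival genes. The same factors induce their own inhibitors, so that a response normally ends itself. In endometrial epithelium the pathway is known for its part in implantation, menstruation and inflammation.

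Ishikawa is an established line derived from an endometrial adenocarcinoma, so all groups are samples of 1 tumour line. Cells first received siRNA for 48 h, either a GPR54-specific or a negative control one, and then a peptide for 24 h, either 10 µM metastin-10 or a control peptide. Metastin-10 is a short active peptide of the KISS1 product kisspeptin, and GPR54, gene symbol KISS1R, is its receptor. Both siRNAs were combined with both peptides, which gave 4 groups: the GPR54 siRNA followed by metastin-10 or by the control peptide, and the control siRNA followed by metastin-10 or by the control peptide. Each had 3 arrays that the labels call biological replicates; whether they came from separate cultures is not stated, so p-values measure the spread between these arrays. The design asks how metastin-10 alters expression and whether the alteration depends on GPR54.

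KISS1R checks the siRNA labels, and it went against them. Its log2 values were 9.60, 9.42 and 9.28 on the arrays labelled GPR54 siRNA with metastin-10, and 9.46, 9.45 and 9.36 on those labelled GPR54 siRNA with control peptide. They were 8.43, 8.42 and 8.35 with control siRNA and metastin-10, and 9.39, 9.32 and 9.14 with control siRNA and control peptide. The targeted transcript was thus not lower on either set of arrays labelled GPR54 siRNA, and was lowest with control siRNA and metastin-10. Group names and every direction, including those of the metastin-10 differences under control siRNA, therefore rest on the labels alone. Array medians lay between 5.13 and 5.22, and correlations between arrays between 0.992 and 0.998.

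No member passed the test in any comparison of the 4 groups. The values are log2 RMA intensities, so that a difference of 1 is a 2-fold change. Passing means an adjusted p below 0.05 by limma with Benjamini-Hochberg adjustment over all 54613 probe sets. For metastin-10 minus control peptide under control siRNA, 0 of 36 members passed, beside 0.607% of all genes. Under the GPR54 siRNA label it was 0 of 36, beside 0% of all genes. For the GPR54 siRNA label minus control siRNA, 0 of 36 members passed with metastin-10, beside 1.04% of all genes, and 0 of 36 with control peptide, beside 0%. The interaction, which is the metastin-10 difference under the GPR54 siRNA label minus that under control siRNA, had 0 of 36, beside 0.106%. An F test over the 4 groups had 0 of 36, beside 0.753%. With replicate number as a block, LCN2 passed between siRNA labels with metastin-10 (adjusted p = 0.0224), and over all alternatives 0 to 3 members passed in that comparison.

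At an unadjusted p below 0.05, 7 of 36 members stood out for metastin-10 under control siRNA, beside 11.9% of all genes. They were CXCL8, LIF and IL1A with a positive difference and TNFAIP3, IL15, IL18 and LCN2 with a negative one. Under the GPR54 siRNA label it was PTX3 alone, beside 1.81%. For the siRNA label, TNFAIP3, NFKB2, LCN2 and LIF stood out with metastin-10, beside 13.1%, and PTX3 and IL1A with control peptide, beside 2.80%. The interaction had 4 such members, beside 6.28%, and the F test 5, beside 9.19%. As shares of the 36 members these counts ran from 2.78% to 19.4%, and the members pointed in both directions. Whether the members differ from all genes in these shares was not tested.

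The intervals bound the size of a possible difference in array values, for each member and comparison taken alone. The 95% intervals of all 36 members lay between -1 and 1 in each of the 5 comparisons. For metastin-10 under control siRNA, 28 of 36 intervals lay within 0.5 of 0, and under the GPR54 siRNA label 34 of 36. For the siRNA label the counts were 30 with metastin-10 and 33 with control peptide. Half-widths had a median of 0.25 for these 4 comparisons and 0.35 for the interaction. The median member difference for metastin-10 was 0.06 under control siRNA and -0.02 under the GPR54 siRNA label, beside medians over all genes of 0.01 and -0.01. The first of these was -0.077 over the 13 members with a mean of at least 6 on the log2 scale, and 0.0082 without replicate 1 of control siRNA with metastin-10. The comparisons share groups of arrays, so their values are not independent of each other.

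**Figure D1:**
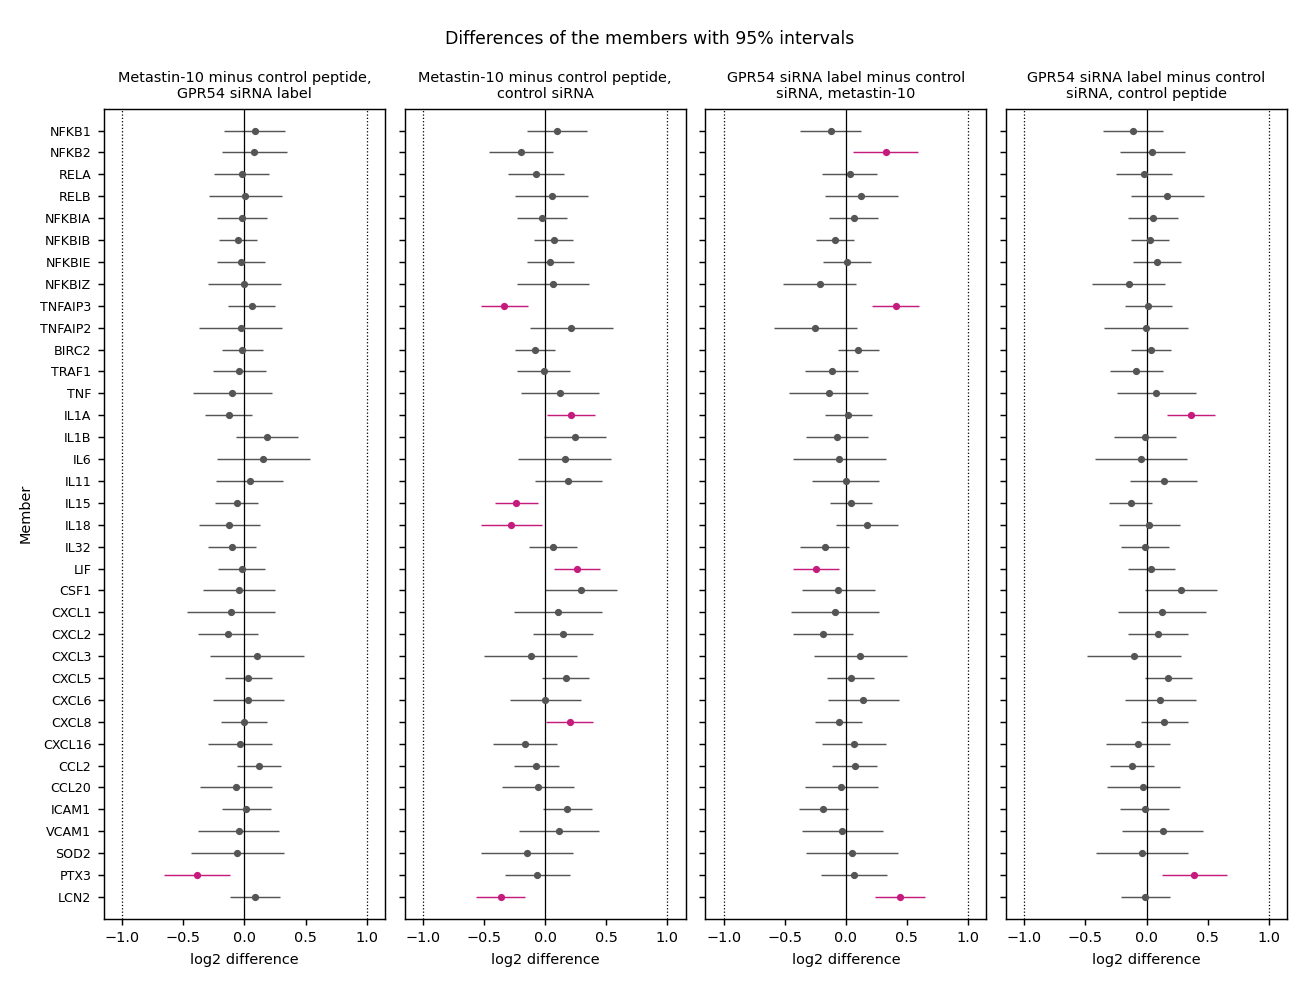
Log2 differences of the 36 measured members (points) with 95% intervals (lines) in the 4 comparisons of 2 groups, with rows in the order of the roles. Coloured points have an unadjusted p below 0.05, dotted lines mark a 2-fold change in either direction, and no interval reaches them.

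A mean below 6 on the log2 scale was seen for 23 of the 36 members, and for 45.4% of all genes. No detection calls were used, so whether such a probe set lies above background is unknown, and a change of a dim transcript may be compressed. Member means over the 12 arrays ran from 3.55 to 6.89 for the cytokines and from 2.56 to 6.96 for the chemokines. The ranges were 4.55 to 8.38 for the transcription factor subunits and 5.79 to 9.12 for the inhibitors and feedback genes. Most cytokine and chemokine probe sets were therefore in the dim part of the scale, and the plot of members by array shows small departures in either direction among them.

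**Figure D2:**
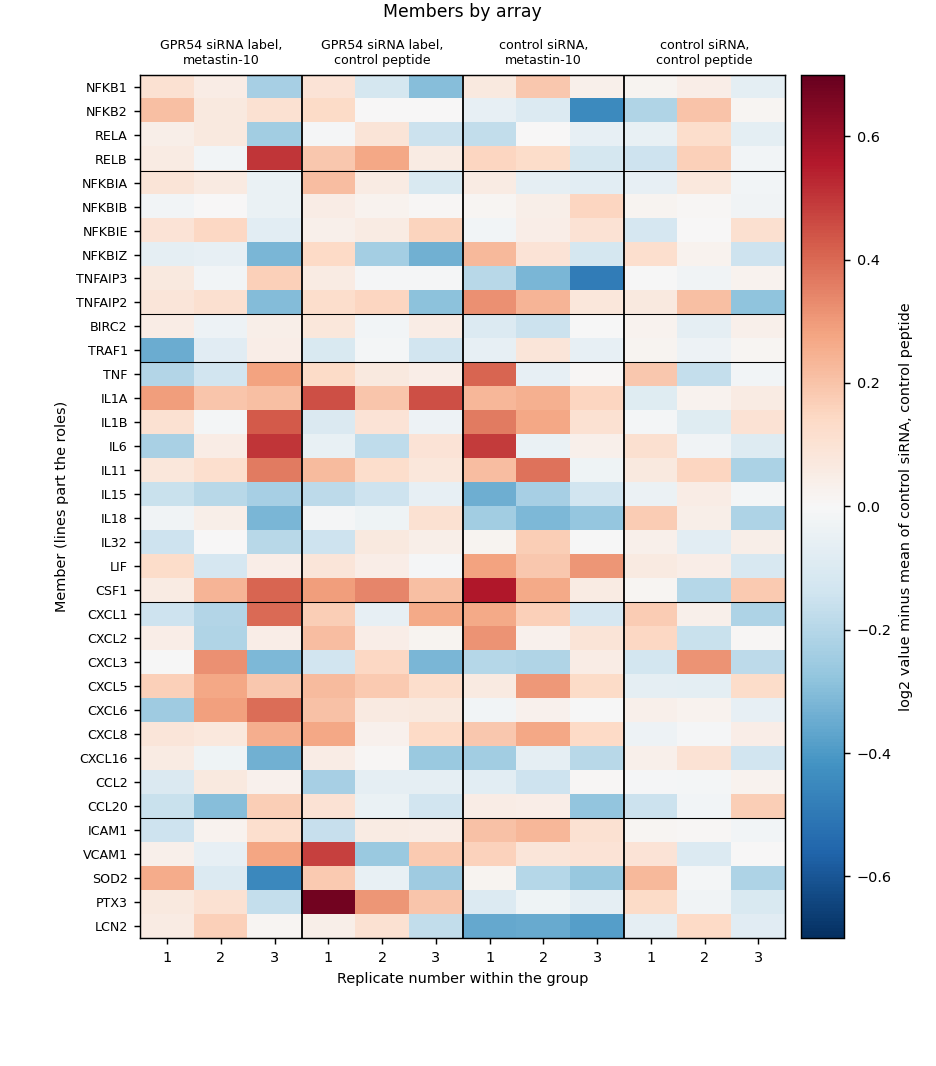
Log2 value of each member on each of the 12 arrays minus the member's mean with control siRNA and control peptide. Rows are members grouped by role and columns are arrays grouped by siRNA label and peptide. TNFAIP3 and LCN2 are below 0 on all 3 arrays with control siRNA and metastin-10, and LIF is above 0 there.

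The transcription factor subunits were measured for all 4 genes. RELA and NFKB1, which encode the subunits of the classical dimer, had differences in the 4 comparisons of 2 groups from -0.12 for NFKB1 between siRNA labels with metastin-10 to 0.10 for NFKB1 with metastin-10 under control siRNA. RELB, a subunit of the alternative pathway, reached its highest difference of 0.17 between siRNA labels with control peptide. NFKB2, the precursor of RELB's partner, averaged 5.78 ± 0.08 with metastin-10 under the GPR54 siRNA label and 5.45 ± 0.21 with metastin-10 under control siRNA (SD, n = 3 each). That difference of 0.33 had an adjusted p of 0.374 by limma, and the 2 groups did not overlap. For metastin-10 under control siRNA the NFKB2 difference was -0.20, with an interval from -0.46 to 0.07.

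The inhibitors and feedback genes include NFKBIA, NFKBIB and NFKBIE, which encode the cytoplasmic IkB proteins, and NFKBIZ, a nuclear member of that family. NFKBIA is a rapid NF-kB target and is often read as a gauge of pathway activity. Its values were 9.20, 9.17 and 9.06 on arrays labelled GPR54 siRNA and metastin-10, 9.32, 9.17 and 9.001 on arrays labelled GPR54 siRNA and control peptide, 9.16, 9.05 and 9.04 with control siRNA and metastin-10, and 9.05, 9.18 and 9.09 with control siRNA and control peptide. All 4 groups of NFKBIA overlapped, with differences from -0.03 to 0.06. NFKBIB and NFKBIE had differences between -0.09 and 0.08. NFKBIZ ranged from -0.21 between siRNA labels with metastin-10 to 0.07 for metastin-10 under control siRNA. TNFAIP2, a TNF-induced gene whose product shapes membrane protrusions, had a difference of 0.21 for metastin-10 under control siRNA, with an interval from -0.13 to 0.55.

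TNFAIP3 encodes a ubiquitin-editing enzyme that shuts off NF-kB signalling downstream of TNF and Toll-like receptors. Its promoter is shown because TNFAIP3 and LCN2 had the smallest p-values of all members. The window shown, chr6:137867009-137867258 on the plus strand of GRCh38.p14, is the 250 bases before a transcript start that the RefSeq table gives. It lies inside the annotated gene, whose span begins at 137866349. Capitals mark both matches, on the minus strand, to the kappa-B-type motif (GGG, any 3 bases, TTCC), which start 67 and 55 bases before that transcript start.
TNFAIP3: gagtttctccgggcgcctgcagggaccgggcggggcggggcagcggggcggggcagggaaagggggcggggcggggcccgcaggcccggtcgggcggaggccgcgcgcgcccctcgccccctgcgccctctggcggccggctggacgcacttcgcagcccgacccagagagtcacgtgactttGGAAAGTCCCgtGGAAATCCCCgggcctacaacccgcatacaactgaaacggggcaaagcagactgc

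The TNFAIP3 values were 5.92, 5.83 and 6.02 on arrays labelled GPR54 siRNA and metastin-10, and 5.90, 5.84 and 5.84 on arrays labelled GPR54 siRNA and control peptide. With control siRNA they were 5.65, 5.53 and 5.36 after metastin-10 and 5.84, 5.83 and 5.88 after control peptide. The 3 arrays with control siRNA and metastin-10 lay below the other 9, which overlapped. The metastin-10 difference was -0.34 ± 0.09 (SE) under control siRNA, with an interval from -0.53 to -0.14 and an adjusted p of 0.168, and 0.06 under the GPR54 siRNA label. The difference between siRNA labels was 0.41 ± 0.09 (SE) with metastin-10, with an interval from 0.22 to 0.60 and an adjusted p of 0.0730, and 0.01 with control peptide. A second TNFAIP3 probe set gave 0.30 between siRNA labels with metastin-10, but 0.10 for metastin-10 under control siRNA, the opposite sign. In such bulk samples, fewer cells of a type and less RNA per cell cannot be told apart.

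The survival and signalling adaptors were represented by BIRC2, a ubiquitin ligase of TNF receptor complexes, and TRAF1, an adaptor of that receptor family. BIRC2 averaged 10.5 over the 12 arrays, and its differences ran from -0.08 to 0.10. TRAF1 differences ran from -0.11 to -0.01. Neither had an unadjusted p below 0.05 in any comparison.

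Of the 11 listed cytokines 10 were measured. For metastin-10 under control siRNA 8 of the 10 differences were above 0, with a median of 0.17, and none passed the test. The 2 below 0 were IL15 and IL18, with means over the 12 arrays of 6.89 and 6.57. All 8 above 0 had a mean below 6, in the dim part of the scale. Replicate 1 was the highest of the 3 metastin-10 arrays for TNF, IL6, IL1B and CSF1, and not for IL1A, IL11, IL32 and LIF. The count was not recomputed without that array. The background is that 52.0% of all genes, bright and dim, had a difference above 0. The share among dim genes alone was not computed. Under the GPR54 siRNA label 3 of the 10 were above 0, with a median of -0.06. The log2 of the summed level of 7 leukocyte markers, of 9 listed, was 7.41 to 7.70 with control siRNA and metastin-10. With control siRNA and control peptide it was 7.28 to 7.40. In the same groups that of 6 endothelial markers was 8.26 to 8.40 against 8.14 to 8.26. For 7 stromal fibroblast markers it was 9.95 to 10.12 against 10.01 to 10.47, and for 8 epithelial markers 15.28 to 15.33 against 15.41 to 15.44. Of 19 measured cytokine and chemokine receptors 14 had a difference above 0 in this comparison, and 0 passed. The part of these lists in the cytokine values was not tested. TNF and IL6, the cytokines most often used to read NF-kB activity, had metastin-10 differences of 0.12 and 0.16 under control siRNA, with overlapping groups. Their means over the 12 arrays were 4.08 and 3.74. With control siRNA TNF was 4.45, 3.98 and 4.05 after metastin-10 and 4.23, 3.87 and 4.02 after control peptide. IL6 was 4.17, 3.63 and 3.72 against 3.79, 3.66 and 3.59. Replicate 1 was thus well above the other metastin-10 arrays in both genes. IL11, an interleukin of the IL6 family made in decidualising endometrium, had a difference of 0.19, and IL32, an inducer of other cytokines, 0.06.

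LIF, a cytokine of the IL6 family that is required for implantation in mice, had values of 5.30, 5.06 and 5.22 on arrays labelled GPR54 siRNA and metastin-10, and 5.26, 5.22 and 5.17 on arrays labelled GPR54 siRNA and control peptide. With control siRNA they were 5.46, 5.37 and 5.49 after metastin-10 and 5.24, 5.22 and 5.07 after control peptide. The 3 arrays with control siRNA and metastin-10 lay above the other 9. The metastin-10 difference under control siRNA was 0.26 ± 0.09 (SE), with an interval from 0.07 to 0.45 and an adjusted p of 0.309. The difference between siRNA labels with metastin-10 was -0.24 ± 0.09 (SE), with an adjusted p of 0.353.

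IL15, which sustains natural killer cells, had values of 6.68, 6.79 and 6.89 with control siRNA and metastin-10, against 6.99, 7.08 and 7.01 with control siRNA and control peptide. These groups did not overlap, and the difference was -0.24, with an interval from -0.41 to -0.06 and an adjusted p of 0.310. IL18, an interleukin that induces interferon gamma, averaged 6.38 ± 0.04 with control siRNA and metastin-10 and 6.66 ± 0.20 with control siRNA and control peptide (SD, n = 3 each). Its difference of -0.28 had an adjusted p of 0.428 by limma, and the lowest array of the control peptide group was at 6.44, next to the highest of the metastin-10 group at 6.42.

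IL1A and IL1B encode the interleukin 1 ligands that signal to NF-kB. IL1A had values of 3.64, 3.54 and 3.56 on arrays labelled GPR54 siRNA and metastin-10, and 3.79, 3.54 and 3.79 on arrays labelled GPR54 siRNA and control peptide. With control siRNA they were 3.58, 3.59 and 3.50 after metastin-10, and 3.26, 3.37 and 3.40 after control peptide. The control siRNA and control peptide arrays were the lowest, below all other 9. The difference between siRNA labels with control peptide was 0.36 ± 0.09 (SE), with an adjusted p of 0.362, but the gene's other probe set gave -0.09.

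IL1B had values of 5.13, 5.01 and 5.45 on arrays labelled GPR54 siRNA and metastin-10, and 4.92, 5.12 and 4.99 on arrays labelled GPR54 siRNA and control peptide. After control siRNA they were 5.39, 5.29 and 5.13 with metastin-10 and 5.01, 4.94 and 5.12 with control peptide. The metastin-10 difference was 0.25 under control siRNA, where the groups did not overlap, and 0.19 under the GPR54 siRNA label, where they did. Without replicate 3 labelled GPR54 siRNA and metastin-10 the IL1B difference under that label was 0.059. CSF1, the growth factor of macrophages, had values of 5.18, 5.36 and 5.53 on arrays labelled GPR54 siRNA and metastin-10, and 5.42, 5.46 and 5.34 on arrays labelled GPR54 siRNA and control peptide. The CSF1 values with control siRNA were 5.69, 5.39 and 5.18 after metastin-10, and 5.14, 4.93 and 5.31 after control peptide. The metastin-10 difference in CSF1 under control siRNA was 0.30, with an adjusted p of 0.472 by limma and overlapping groups. Between same-numbered arrays it was 0.55, 0.46 and -0.12. All 4 CSF1 probe sets gave a difference above 0, but they were read on the same arrays and are not independent.

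The chemokines include 6 genes of the CXC group that attract neutrophils, CXCL1, CXCL2, CXCL3, CXCL5, CXCL6 and CXCL8. CXCL8 averaged 3.50 ± 0.07 with control siRNA and metastin-10 and 3.30 ± 0.04 with control siRNA and control peptide (SD, n = 3 each). Its difference of 0.20 had an adjusted p of 0.451 by limma, and the 2 groups did not overlap. CXCL1, CXCL2 and CXCL3 had differences of 0.11, 0.14 and -0.12 in that comparison, and CXCL5 and CXCL6 had 0.17 and 0.00. CXCL16, a membrane-bound chemokine, had -0.17, and CCL2, which attracts monocytes, and CCL20, the ligand of CCR6, had -0.07 and -0.06. The probe sets used for CXCL2 and CXCL8, and for NFKBIB, are of a type whose probes may also match related transcripts.

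These 6 genes lie together on chromosome 4, and the promoters of all but CXCL8 are shown because they carry the same kappa-B-type motif at a similar distance from the start. The CXCL8 promoter holds TGGAATTTCC, which differs from the motif only in its leading letter and was not counted as a match. Each window holds 40 bases, from RefSeq on GRCh38.p14, in the direction of the gene, and capitals mark GGGAATTTCC. The windows are at chr4:73869299-73869338 (plus strand) for CXCL1, chr4:74099249-74099288 (minus) for CXCL2, chr4:74038744-74038783 (minus) for CXCL3, chr4:73998744-73998783 (minus) for CXCL5 and chr4:73836573-73836612 (plus) for CXCL6. In capitals the motif starts 79, 78, 79, 91 and 90 bases before the start of these genes in that order.
CXCL1: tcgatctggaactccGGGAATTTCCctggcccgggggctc
CXCL2: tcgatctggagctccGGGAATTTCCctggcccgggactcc
CXCL3: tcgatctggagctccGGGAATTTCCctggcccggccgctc
CXCL5: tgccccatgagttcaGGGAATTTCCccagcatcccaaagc
CXCL6: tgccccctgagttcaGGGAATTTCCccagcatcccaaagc

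The CXCL2 and CXCL3 windows matched that of CXCL1 at 35 and 37 of the 40 positions, and the CXCL5 and CXCL6 windows at 20 each. Each window is the motif with 15 bases on either side, so the positions of the motif match by construction. None of the 5 genes shown had an unadjusted p below 0.05 in any comparison. Across all promoters of the table, the kappa-B-type motif was found on either strand in at least 1 window of 6.87% of 27305 genes. Among the 28 members with a promoter in the table it was found in 15, or 53.6%. The list was drawn up from NF-kB pathway genes and their targets, so this share is not independent of that choice. The motif GGGAATTTCC with a further C also reads as a match on the other strand, offset by 1 base, so that both overlapping matches are the same site. The 15 members with the motif had a median metastin-10 difference of 0.06 under control siRNA. The 13 without an exact match, CXCL8 among them, had 0.12. For the siRNA label with metastin-10 the medians were -0.04 with the motif and -0.03 without it. With control peptide they were 0.01 and 0.04. For metastin-10 under the GPR54 siRNA label they were 0.03 and -0.03, and for the interaction -0.01 and -0.16. Whether the medians differ was not tested. The AP-1-type motif TGANTCA was found in 5 of the 28 promoters, or 17.9%, beside 8.06% of all genes. TATAAA was found in 8, or 28.6%, beside 13.05%. A match is a description of the letters in the window and shows neither binding nor regulation.

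Among the adhesion and effector genes, LCN2 encodes lipocalin 2, a secreted protein of epithelium and neutrophils that binds bacterial siderophores and is induced by NF-kB. Its promoter is shown because LCN2 had the smallest p of all members in 3 of the 5 comparisons. The 250 bases before its start lie at chr9:128149203-128149452 on the plus strand of GRCh38.p14, from RefSeq. Capitals mark a match to the kappa-B-type motif on the minus strand, starting 175 bases before the start, and one to TGANTCA on the plus strand, starting 52 bases before it.
LCN2: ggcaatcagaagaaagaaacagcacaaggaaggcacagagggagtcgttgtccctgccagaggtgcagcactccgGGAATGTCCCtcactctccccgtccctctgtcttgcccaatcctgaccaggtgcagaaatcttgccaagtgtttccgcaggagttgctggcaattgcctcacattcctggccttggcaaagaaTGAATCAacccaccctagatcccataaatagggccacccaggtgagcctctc

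The LCN2 values were 9.41, 9.52 and 9.37 on arrays labelled GPR54 siRNA and metastin-10, and 9.39, 9.46 and 9.18 on arrays labelled GPR54 siRNA and control peptide. With control siRNA they were 8.996, 9.001 and 8.97 after metastin-10, and 9.29, 9.49 and 9.28 after control peptide. The 3 arrays with control siRNA and metastin-10 lay close together and below the other 9. The same 3 arrays had the lowest KISS1R values and the lowest summed level of 8 epithelial markers, with a log2 of 15.28 to 15.33 against 15.37 to 15.45 on the other 9, and the part of either in the LCN2 values was not tested. The difference between siRNA labels with metastin-10 was 0.44 ± 0.09 (SE), a fold of 1.36, with an interval from 0.24 to 0.65 and an adjusted p of 0.0633. With control peptide that difference was -0.01, with an interval from -0.21 to 0.20. The metastin-10 difference was -0.37 ± 0.09 (SE) under control siRNA, with an adjusted p of 0.153, and 0.09 under the GPR54 siRNA label. Over the alternative settings the adjusted p of the difference between siRNA labels with metastin-10 ran from 0.00703 to 0.259, on both sides of the threshold.

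**Figure D3:**
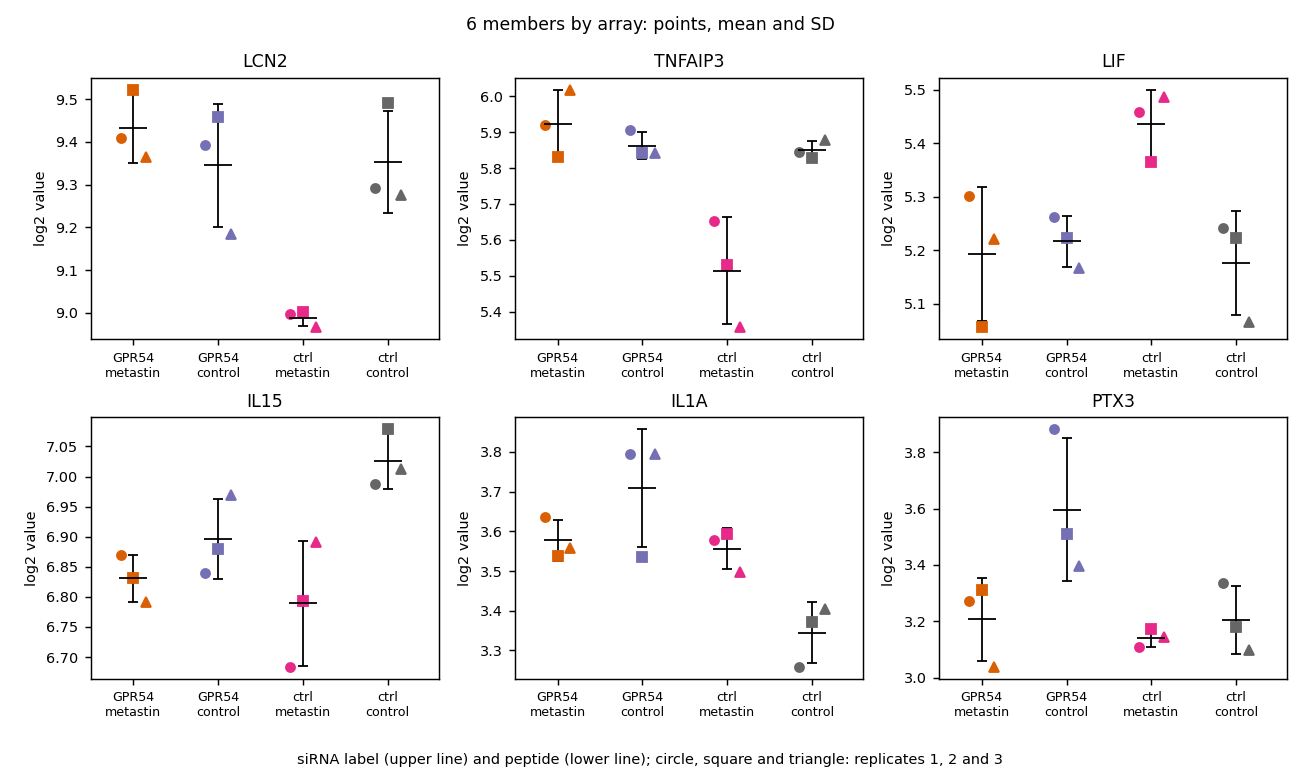
Log2 values of 6 members on each array (points), with the group mean (long bar) and SD (whiskers, n = 3), by siRNA label (upper axis line) and peptide (lower line), with a separate scale for each panel. LCN2 and TNFAIP3 are lowest and LIF is highest with control siRNA and metastin-10, whereas IL1A is lowest with control siRNA and control peptide and PTX3 is highest on arrays labelled GPR54 siRNA and control peptide.

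PTX3, a pattern recognition protein of the pentraxin family, had values of 3.27, 3.31 and 3.04 on arrays labelled GPR54 siRNA and metastin-10, and 3.88, 3.51 and 3.40 on arrays labelled GPR54 siRNA and control peptide. With control siRNA they were 3.11, 3.17 and 3.14 after metastin-10, and 3.34, 3.18 and 3.10 after control peptide. The arrays labelled GPR54 siRNA and control peptide lay above the other 9 and spread the most. The metastin-10 difference under the GPR54 siRNA label was -0.39 ± 0.12 (SE), with an interval from -0.66 to -0.12 and an adjusted p of 0.999997. The difference between siRNA labels with control peptide was 0.39 ± 0.12 (SE), with an adjusted p of 0.751. Without replicate 1 labelled GPR54 siRNA and control peptide, these PTX3 differences were -0.25 and 0.25. ICAM1 and VCAM1, which bind integrins of leukocytes, had metastin-10 differences of 0.18 and 0.11 under control siRNA, and SOD2, the mitochondrial superoxide dismutase, had -0.15.

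Groups that do not overlap were counted for each comparison and direction. For metastin-10 under control siRNA, 5 members lay entirely higher (CXCL8, IL1B, LIF, IL1A and ICAM1), beside 8.72% of all genes, and 4 lay entirely lower (TNFAIP3, IL15, IL18 and LCN2), beside 10.9%. Under the GPR54 siRNA label 0 lay higher, beside 2.33%, and PTX3 and NFKBIB lay lower, beside 2.35%. Between siRNA labels with metastin-10, TNFAIP3, NFKB2 and LCN2 lay higher, beside 11.2%, and LIF and NFKBIB lower, beside 6.35%. Between siRNA labels with control peptide, PTX3, CXCL6, IL1A and CSF1 lay higher, beside 6.34%, and IL15 and CCL2 lower, beside 2.90%. These shares ran from 0% to 13.9% of the 36 members and from 2.33% to 11.2% of all genes.

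The interaction tests whether the metastin-10 difference depended on the siRNA label. LCN2 had an interaction of 0.45 ± 0.13 (SE), with an interval from 0.16 to 0.74 and an adjusted p of 0.499. TNFAIP3 had 0.40 ± 0.13 (SE), with an adjusted p of 0.574. IL1A had -0.34 ± 0.13 (SE), with an adjusted p of 0.666. The median member interaction was -0.05, beside -0.01 for all genes. No member's dependence on the siRNA label was therefore shown, and 18 of 36 intervals reached beyond 0.5 in size.

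A second probe set or more was present for 17 members, with 24 further probe sets in all. For metastin-10 under control siRNA, 11 of the 24 had the same sign as the brightest probe set, and between siRNA labels with metastin-10 14 of the 24 did. None of the 24 passed the test in any of the 5 comparisons, beside the backgrounds given above.

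The arrays also differed by replicate number, and some members differed more by number than by group. In arrays numbered 3 minus those numbered 1 and 2, TNFAIP2, SOD2 and NFKBIZ fell, beside 6.69% of all genes, and 0 members rose, beside 1.74%. TNFAIP2 averaged 8.66 ± 0.18 on the 4 arrays numbered 3 and 9.02 ± 0.09 on the 8 others (SD), a difference of -0.36 with an adjusted p of 0.00378 by limma. SOD2 averaged 8.13 ± 0.11 on arrays numbered 3 and 8.47 ± 0.17 on the others, a difference of -0.34 with an adjusted p of 0.00835. NFKBIZ had a difference of -0.26 and an adjusted p of 0.0228. The actin control probe sets at the 3′ end minus those at the 5′ end, a measure of RNA integrity and labelling, gave 0.31 ± 0.04 on arrays numbered 3, against 0.77 ± 0.09 and 0.72 ± 0.05 on those numbered 1 and 2 (SD). Its part in the differences by number was not tested, and each group holds 1 array of each number.

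Of the variance over the 12 arrays, a median of 28.8% lay between groups for the members and 28.1% for all genes. Between replicate numbers it was 15.5% for the members and 19.7% for all genes. Unrelated variation between arrays also puts a share between groups and between numbers, so these shares do not measure an effect. TNFAIP3 and LCN2, picked for small p-values between groups, had 82.4% and 80.8% of their variance there. SOD2 and TNFAIP2, picked for their differences by number, had 83.0% and 69.5% between numbers. The widest range of any member over the 12 arrays was 0.84, in PTX3.

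**Figure D4:**
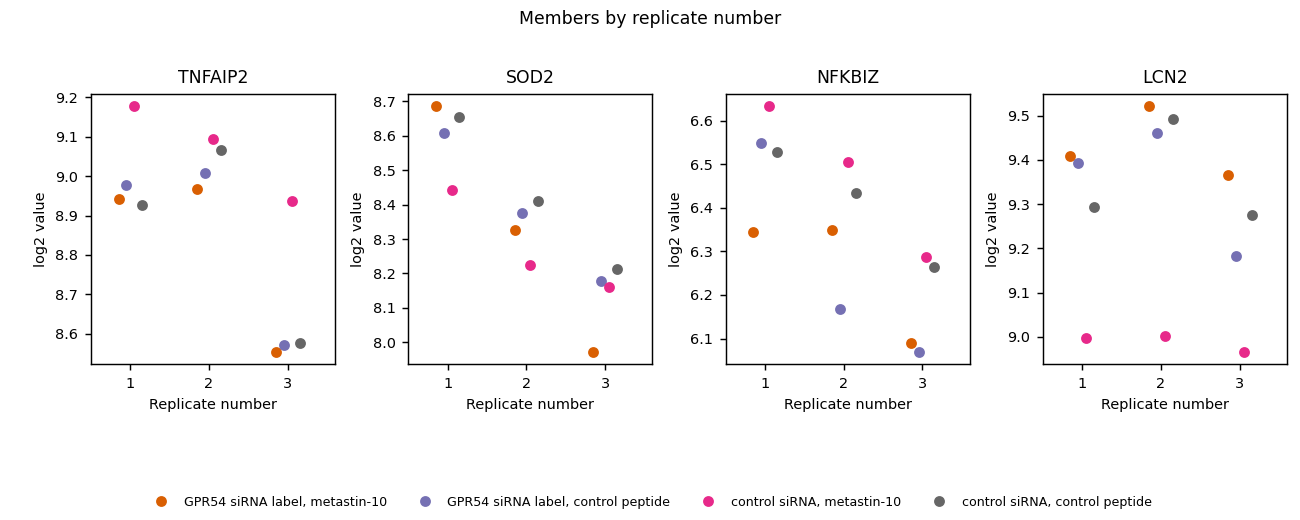
Log2 values of TNFAIP2, SOD2, NFKBIZ and LCN2 by replicate number, coloured by group, with a separate scale for each panel. TNFAIP2, SOD2 and NFKBIZ averaged lower on the arrays numbered 3, whereas the LCN2 values with control siRNA and metastin-10 are lowest at every number.

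Further genes of the pathway were taken from 4 lists: receptors and adaptors upstream of IKK, IKK kinases and regulators, cytokine and chemokine receptors, and other NF-kB target genes. Of 80 genes 75 were measured. For metastin-10 under control siRNA, 0 rose and 2 fell, beside 0.0759% and 0.531% of all genes, both from the list of other NF-kB target genes. The lists were chosen with earlier results of these data known, so this count is not independent of them. PTGS2, the inducible prostaglandin synthase, was 5.22, 5.33 and 5.41 with control siRNA and metastin-10, and 5.95, 5.81 and 5.70 with control siRNA and control peptide, a difference of -0.50 with an adjusted p of 0.0478. SAT1, an enzyme of polyamine breakdown, had a difference of -0.48 with an adjusted p of 0.0174. For the GPR54 siRNA label minus control siRNA with metastin-10, 1 rose and 0 fell, beside 0.966% and 0.0708%. SAT1 rose by 0.54, with an adjusted p of 0.00611, and PTGS2 had 0.41 with an adjusted p of 0.110. In the other 3 comparisons 0 of the 75 passed. The smallest p of the other 3 lists for metastin-10 under control siRNA belonged to TNFRSF12A (0.34, adjusted p = 0.198), REL (-0.23, adjusted p = 0.531) and IL2RG (0.31, adjusted p = 0.387), which did not pass.

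Marker lists were read to see which cells the RNA came from. All 8 epithelial markers were measured, with means from 7.81 to 14.0, and the endothelial and leukocyte markers had means of at most 6.97 and 5.61. The stromal fibroblast markers had means from 2.56 to 9.84, the highest of them in COL1A1, a collagen chain. The log2 of the summed epithelial levels was 15.37 to 15.45 on arrays labelled GPR54 siRNA and metastin-10, and 15.40 to 15.44 on arrays labelled GPR54 siRNA and control peptide. It was 15.28 to 15.33 with control siRNA and metastin-10, and 15.41 to 15.44 with control siRNA and control peptide. The epithelial sum was thus lowest on the arrays on which LCN2, TNFAIP3 and KISS1R were lowest. KRT19, an epithelial keratin, fell by 0.48 on the log2 scale with metastin-10 under control siRNA, with an adjusted p of 0.0090. Between siRNA labels with metastin-10, 2 of the 8 epithelial markers rose, KRT19 by 0.59 (adjusted p = 0.0017) and MUC1, an apical mucin, by 0.57 (adjusted p = 0.0307). In the other 3 comparisons 0 of the 8 passed. The 7 leukocyte, 7 stromal fibroblast and 6 endothelial markers measured had 0 called in each of the 5 comparisons. The part of these markers in the member values was not tested.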

How the data were processed

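Total RNA of 12 samples was hybridised to Affymetrix U133 Plus 2.0 arrays. The log2 intensities in the 1 deposited table come from RMA, as the submitters' processing notes name it. Its software version is not given in the sources used. RMA sets the distribution of every array equal, which hides a shift that most genes share. Of 54675 probe sets, 62 control ones were left out and the other 54613 entered the tests whatever their level. Names came from the platform annotation, and symbols were checked against RefSeq of GRCh38.p14, which changed 0. Of the tested probe sets 41091 had 1 gene, 1801 several and 11721 none listed, and those with several were not named. Precision is limited by the number of arrays.

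limma 3.58.1 in R 4.3.3 fitted 4 group means over the 12 arrays (8 residual degrees of freedom) with empirical Bayes moderation. Tests were two-sided with Benjamini-Hochberg adjustment over all tested probe sets and a threshold of 0.05. An F test covered the 4 groups. A fit with replicate number as a factor gave arrays numbered 3 minus the others. In simulated data for the metastin-10 comparison under control siRNA (54613 probe sets), the fit recovered 86% of changes of 1 and 26% of changes of 0.5 on the log2 scale. For the interaction it recovered 46% and 1%. The simulated spread was independent between arrays, so differences by replicate number were not included. Promoters came from RefSeq.

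The members and lists were chosen with earlier results of these data known. Values on each array were given for members past the threshold and for the 3 smallest p-values in each comparison. The other members were summarised, with values for unadjusted p below 0.05 and for the extremes of each role. NFKBIA, IL15, TNF, IL6, PTGS2 and KISS1R were given by array outside that rule. The labels do not say what a replicate number shares. Deviations from the group means of same-numbered arrays correlated over 0.1 in every pair for metastin-10 under control siRNA (0.26, 0.17 and 0.44), under the GPR54 siRNA label (0.37, 0.26 and 0.52) and between siRNA labels with control peptide (0.11, 0.21 and 0.54). Between siRNA labels with metastin-10 they did not (-0.15, 0.26 and 0.07).

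Alternatives were a replicate block, replicate 3 as a batch block, replicates 1 and 2 only, array weights, a variance trend with robust moderation, median and MAD scaling, a mean of at least 6, the mean of all probe sets of a gene, only the groups compared, and each array left out in turn.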

Additional observations from a re-analysis of the deposited data

How the results depend on the processing

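The count of members past the threshold stayed at 0 under every alternative run for metastin-10 under either siRNA label, for the siRNA label with control peptide and for the interaction. Between siRNA labels with metastin-10 it was 1 with the replicate block (LCN2, adjusted p = 0.0224 by limma, beside 1.57% of all genes), 2 with replicate 3 as a batch block (LCN2 0.0216, TNFAIP3 0.0499), 3 with array weights (LCN2 0.00703, TNFAIP3 0.0302, LIF 0.0478), 1 with variance trend and robust moderation (LCN2 0.0123), 1 with a mean of at least 6 (LCN2 0.0172), and 2 with the mean of all probe sets of a gene (LCN2 0.0194, TNFAIP3 0.0360). The last 2 test fewer features. With each array left out in turn it was 0 to 0. Adjusted p in this comparison ran from 0.00703 to 0.259 for LCN2, from 0.0302 to 0.417 for TNFAIP3 and from 0.0478 to 0.680 for LIF. The replicate block changed no other call. The F test had 1 member (LCN2) with array weights and 1 with variance trend and robust moderation. Arrays numbered 3 minus the others had 5 members (NFKB1 and CXCL16 in addition) with variance trend and robust moderation and 5 with a mean of at least 6, against 3.

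The median member difference for metastin-10 under control siRNA was 0.06, but -0.077 for the 13 members with a mean of at least 6, and 0.0082 to 0.073 with each array left out, lowest without replicate 1 of control siRNA with metastin-10. With a mean of at least 6 the median was -0.0083 between siRNA labels with control peptide and 0.052 for the interaction, and with array weights -0.060 between siRNA labels with metastin-10. IL1B reversed once, to -0.00075 with array weights for metastin-10 under the GPR54 siRNA label. The cause of these changes was not tested. Of 300 recomputed differences of named members, 289 kept their direction and side of the threshold. Probe sets called in all for metastin-10 under control siRNA ran from 77 to 532 over these settings, and from 71 to 263 with an array left out, against 234. For the siRNA label with metastin-10 they ran from 57 to 2016, and from 129 to 332, against 316. With control peptide they ran from 0 to 130, against 29, and for the interaction from 2 to 250, against 28. Signal over background is unknown, which limits what dim members can show.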
